A study of Rattus norvegicus with 167 samples.

Results

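The tissue described here is rat spinal cord immediately rostral to a complete thoracic transection, taken 1 day after the gap had been bridged by a tube of chitosan carrying neurotrophin-3 (NT3). It was represented by the 3 arrays whose labels give the rostral segment, NT3 and day 1, and these were set against the 3 arrays of uninjured cord, so that 6 of the 167 arrays of the series carry the main comparison. In the study a piece of thoracic cord was cut out, and the gap was filled with a chitosan tube holding NT3, filled with the same tube without NT3 (empty tube, ET) or left without a tube (lesion control, LC). Cord rostral to the lesion, at the lesion and caudal to it was profiled from day 1 to day 90 on Affymetrix arrays. All injured groups therefore shared the transection and the loss of a cord segment, and both tube groups shared the chitosan. The groups used beside the main pair were rostral LC on day 1, rostral ET on day 1, rostral NT3 on day 3 and caudal NT3 on day 1, with 3 arrays each. The labels used here give no strain, sex or age and no level of the cord for the uninjured tissue. Whether each replicate was its own animal is not stated, so p-values here reflect the scatter among samples within groups, which may be technical. That scatter was pooled over all 65 rostral and uninjured arrays, from day 1 to day 90, and not taken from the compared arrays alone. The caudal comparison added the caudal arrays.

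Transection of the cord cuts descending and ascending axons, opens the blood-spinal cord barrier and sets off an inflammatory response within hours. Resident astrocytes, microglia and endothelial cells release chemokines that draw in neutrophils first and monocytes after them, and astrocytes switch on acute phase and cytoskeletal genes. NT3 is a neurotrophin that acts mainly through the receptor TrkC, encoded by Ntrk3, and supports proprioceptive and corticospinal axons.

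Values below are the authors' deposited log2 values, in which a difference of 1 is a 2-fold change. A gene was called when limma, a linear model that shares information on the spread across genes, gave an adjusted p under 0.05. Of 12040 genes tested, 5673 (47.1%) were called between NT3 on day 1 and uninjured cord, 2663 of them higher (22.1%) and 3010 lower (25%). At least 2-fold, 630 genes rose (5.23%) and 139 fell (1.15%), so the large changes were mostly increases. The median difference over all genes tested was -0.021. Gene lists are described by counts and medians to be read against these shares. In all, 730 of 927 different listed genes passed the filter on low values and were tested.

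The defining markers of cord were high on all 6 arrays, with the neuronal gene Snap25 from 13.66 to 13.90, the astrocyte gene Gfap from 13.76 to 14.10 and the myelin gene Mbp from 14.73 to 14.85. Of the lists of other cell types, 0 of 12 T cell genes, 0 of 19 skeletal muscle genes and 0 of 6 erythrocyte genes were called. Of 5 fat cell genes, Cfd (1.55) and Fabp4 (1.62) rose while Adipoq, Plin1 and Pparg were not called, and the mean level of the list ran from 5.50 to 5.59 with NT3 against 4.91 to 5.02 in uninjured cord. Of 8 Schwann cell genes, Egr2 (1.77) and Drp2 (0.80) rose and Mal (-0.69) and Pou3f1 (-0.45) fell, and of 3 ependymal genes Tekt1 (-0.63) and Foxj1 (-0.37) fell. A measure of RNA quality differed between the groups, and uninjured replicate 2 stood apart. For beta-actin the 3-prime probe set minus the 5-prime one, a measure that grows when RNA is degraded, was 1.36, 2.29 and 1.5 on uninjured replicates 1, 2 and 3, and 1.31, 1.09 and 1.18 on the NT3 arrays. All 3 uninjured arrays lay above all 3 NT3 arrays, with means of 1.72 and 1.19. With this measure as a covariate, 5567 genes were called, and 52.8% of them were higher. How far RNA quality accounts for the calls was not tested. Without uninjured replicate 2, 4831 genes were called instead of 5673, and 50.1% of the called genes were higher instead of 46.9%.

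The largest rises included genes of chemokines, a cytokine, acute phase proteins and protease inhibitors. Ccl2, whose product recruits monocytes, read 4.48, 5.23 and 5.55 in uninjured cord and 12.17, 11.59 and 11.42 with NT3 on day 1. The groups were far apart (log2 difference 6.64, SE 0.30, limma adjusted p = 1.8e-23). The cytokine gene Il6 went from 4.06, 3.93 and 3.84 to 10.77, 9.07 and 9.01 (5.67, SE 0.36, adjusted p = 7.4e-18). Replicate 1 was the highest NT3 array for Il6, and the other two lay close together. Lcn2, which encodes the iron-scavenging lipocalin of neutrophils and reactive astrocytes, went from 6.31, 6.33 and 6.63 to 12.06, 12.07 and 12.15 (5.67, SE 0.46, adjusted p = 1.9e-14), with almost no spread among the NT3 arrays.

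Behind them came Slpi (5.59, SE 0.47), an inhibitor of neutrophil elastase, Timp1 (5.33, SE 0.21), an inhibitor of metalloproteinases, the lipopolysaccharide-binding protein gene Lbp (5.29, SE 0.31) and the protease inhibitor gene Serpina3n (5.28, SE 0.38). The decoy receptor gene Il1r2 (5.28, SE 0.47), the neutrophil chemokine gene Cxcl1 (5.25, SE 0.46), the coagulation inhibitor gene Tfpi2 (4.88, SE 0.23), the monocyte chemokine gene Ccl7 (4.81, SE 0.29) and the hyaluronan-binding protein gene Tnfaip6 (4.78, SE 0.23) completed the 12 largest rises. The 12 were taken from the genes whose NT3 arrays all lay above the uninjured arrays, which were 25.8% of all genes tested, so their separation is no result. On all 3 uninjured arrays 9 of the 12 lay below the 40th percentile of the array, so their starting level lay near the background of the array.

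**Figure D1:**
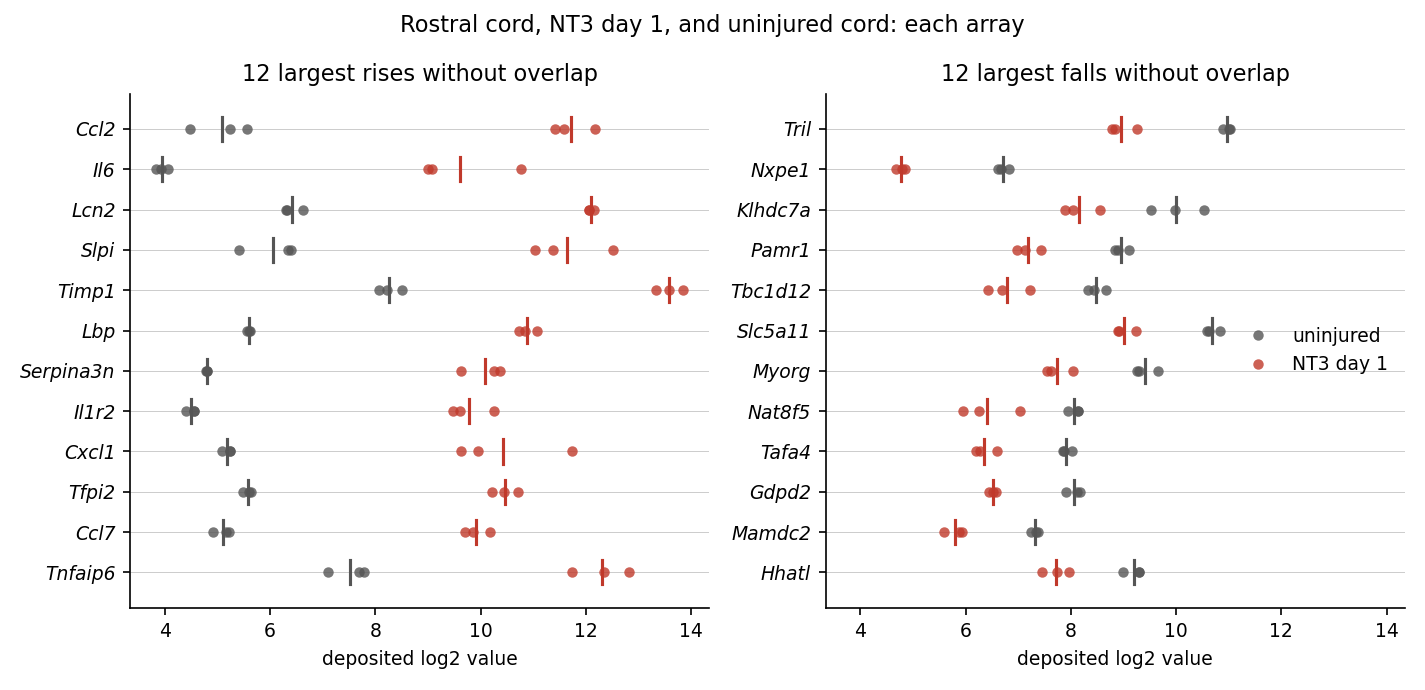
Deposited log2 value (horizontal axis) of the 12 genes with the largest called rises (left) and the 12 with the largest called falls (right) among genes whose groups do not overlap, with one point for each of the 3 uninjured arrays (grey) and 3 NT3 day 1 rostral arrays (red) and a bar at each group mean. Non-overlap was required by the selection, which left out Hoxd10 (-1.87), and rises of up to 6.64 are far larger than falls of up to 2.01.

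Promoter sequences of some of these genes are shown as examples, picked because their windows hold short motifs of inflammatory transcription factors. The genes were selected for their rises, so their common direction is no result. Windows from 250 bases before to 50 after the start of transcription came from RefSeq (build GRCr8) and were found for 8 of the 12 genes. Of these 8 windows 6 held a match, those of Timp1 and Serpina3n held none, and 4 of the 6 are printed. Of the 12 largest falls named below, 11 had a window, and 1 of these held a match. The share of all windows with a match to any motif was not computed. Capitals mark matches to the cyclic AMP response element, CRE (TGACGTCA), the AP-1 site (TGAGTCA) or the NF-kappa B motif, searched on both strands.
Il6, chr4:5894526-5894825, minus strand: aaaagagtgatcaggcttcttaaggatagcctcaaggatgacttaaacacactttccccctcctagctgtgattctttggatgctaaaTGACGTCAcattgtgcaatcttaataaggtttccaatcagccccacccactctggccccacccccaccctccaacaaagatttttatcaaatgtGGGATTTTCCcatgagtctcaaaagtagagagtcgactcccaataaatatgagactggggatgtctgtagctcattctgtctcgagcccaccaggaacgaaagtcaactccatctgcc
Cxcl1, chr14:17479272-17479571, minus strand: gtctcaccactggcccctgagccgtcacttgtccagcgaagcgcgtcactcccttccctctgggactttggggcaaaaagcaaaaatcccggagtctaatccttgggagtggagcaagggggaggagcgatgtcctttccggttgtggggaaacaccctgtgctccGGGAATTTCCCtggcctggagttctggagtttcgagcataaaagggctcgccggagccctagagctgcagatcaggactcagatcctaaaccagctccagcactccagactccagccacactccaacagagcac
Ccl7, chr10:67513845-67514144, plus strand: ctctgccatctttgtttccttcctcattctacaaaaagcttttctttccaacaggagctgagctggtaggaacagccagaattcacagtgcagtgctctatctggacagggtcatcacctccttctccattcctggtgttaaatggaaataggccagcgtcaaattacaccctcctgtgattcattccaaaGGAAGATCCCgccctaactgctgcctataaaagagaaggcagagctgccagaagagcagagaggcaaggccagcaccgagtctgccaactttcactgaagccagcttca
Tnfaip6, chr3:56911148-56911447, plus strand: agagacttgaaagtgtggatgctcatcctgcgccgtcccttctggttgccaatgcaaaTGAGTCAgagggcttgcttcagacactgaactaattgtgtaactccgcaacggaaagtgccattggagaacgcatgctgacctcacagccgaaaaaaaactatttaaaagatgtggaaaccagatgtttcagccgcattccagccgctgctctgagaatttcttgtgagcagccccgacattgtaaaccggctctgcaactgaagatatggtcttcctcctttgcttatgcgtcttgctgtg

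In the Il6 window the CRE match began at position -162 and the NF-kappa B match at position -68 relative to the start of transcription. The Cxcl1 window held an NF-kappa B match at position -84 that overlapped another at -83, Ccl7 had one at -59, and Tnfaip6 had an AP-1 match at -192. A match is a description of the letters and not a measured site. Of the genes called at least 2-fold higher, 488 had a window, and 8.2% of these held the AP-1 letters, against 3.54% of the 9997 windows of all tested genes. The NF-kappa B motif was in 12.7% against 9.99%, the STAT motif (TTCCNGGAA) in 3.07% against 1.3%, the CArG box in 2.25% against 1.25% and the CRE in 3.07% against 3.14%. Among the 117 windows of genes called at least 2-fold lower, the AP-1 letters were in 2.56% and the NF-kappa B motif in 9.4%. No test was made of these shares.

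Of 17 chemokine genes tested, 13 rose and 1 fell, with a median difference of 1.95. Besides Ccl2, Cxcl1 and Ccl7, the neutrophil chemokine gene Cxcl2 read 4.79, 4.47 and 4.53 in uninjured cord and 10.71, 8.42 and 8.60 with NT3 (4.65, SE 0.62, adjusted p = 2.5e-08). Cxcl11 (2.87), Ccl20 (2.81), Ccl3 (2.49) and the interferon-inducible Cxcl10 (2.35) also rose. Cx3cl1, the neuronal ligand of the microglial fractalkine receptor, was the chemokine gene that fell (-0.45). The T cell chemokine gene Ccl5 (0.03) and Cxcl9 (0.21) were not called.

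Of 13 cytokine genes tested 10 rose and 0 fell, with a median of 0.73. Il1b, which encodes the inflammasome product interleukin-1 beta, read 5.97, 5.91 and 6.25 in uninjured cord and 10.58, 7.58 and 7.69 with NT3. The groups did not overlap, but replicate 1 lay far above the other NT3 arrays, and the difference of 2.57 (SE 0.60, adjusted p = 4.1e-04) was 1.59 without it. The alarmin gene Il33 rose by 1.17 and the receptor antagonist gene Il1rn by 0.80. Tnf, the gene of tumour necrosis factor, read 6.31, 6.45 and 6.15 against 6.63, 6.42 and 6.45, with overlapping groups (0.20, SE 0.09, adjusted p = 0.052), and it was called under 6 of the other settings, with 0.56 for the mean of its probe sets and 0.34 with array weights.

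NT3 replicate 1 was the highest of the 3 NT3 arrays for 12 of 17 chemokine genes, for 22 of 24 interferon-stimulated genes and for 16 of 17 feedback genes of NF-kappa B, against 4643 of all 12040 genes tested. Of those feedback genes 10 rose and 0 fell (median 0.53), among them the prostaglandin synthase gene Ptgs2 (2.72), Nfkbiz (2.65) and the inhibitor gene Nfkbia (1.67), while Tnfaip3 (0.22) was not called. Interferon-stimulated genes were split, with 13 of 24 higher, 0 lower and a median of 0.63. Ifit3 went from 5.62, 5.01 and 5.70 to 9.26, 8.01 and 7.62 (2.85, SE 0.46, adjusted p = 1.4e-06), and the guanylate-binding protein gene Gbp2 rose by 2.15. Irf7, the master factor of the type I interferon response, was not called (-0.35), nor was Oas1b (-0.22).

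Immediate early and stress transcription factor genes rose in 18 of 23 cases and fell in 0, with a median of 1.57. Atf3, a stress factor of injured neurons and glia, read 5.54, 5.30 and 5.53 in uninjured cord and 9.27, 8.88 and 9.80 with NT3 (3.86, SE 0.19, adjusted p = 2.5e-22). Maff rose by 3.74, Myc by 2.82 and the acute phase regulator gene Cebpd by 2.75. Fos went from 9.64, 9.24 and 9.60 to 11.87, 11.42 and 12.01 (2.27, SE 0.18), and Junb rose by 1.74. All of these genes separated the groups completely, as did 25.8% of all genes tested in the same direction. Most of them were named for large changes or after their values were seen, so their separation is no result. Of the same list, Arc (-0.06), Egr4 (0.01), Nr4a1 (0.13) and Nr4a3 (-0.09) were among the 5 genes not called.

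In the pathway downstream of interleukin-6, 8 of 16 genes rose and 1 fell (median 0.22). The feedback inhibitor gene Socs3 read 5.61, 5.59 and 5.79 against 7.38, 6.93 and 7.49 (1.60, SE 0.13, adjusted p = 4.6e-14), with no overlap, and Stat3, the transcription factor of the pathway, rose by 1.41. The receptor gene Il6r rose by 0.71 and the shared signal-transducing subunit gene Il6st by 0.23. Without NT3 replicate 1, or without replicate 3, 5 of the 16 genes rose. Of 15 acute phase and protease inhibitor genes 14 rose and 1, Timp4 (-0.59), fell (median 1.85). Beside the genes already named, the ferroxidase gene Cp rose by 3.72, the C1 inhibitor gene Serping1 by 2.31 and A2m by 1.85.

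Genes of neutrophils and macrophages were higher on all 3 NT3 arrays. Of 13 neutrophil genes 9 rose and 0 fell (median 1.39), and the mean level of the list ran from 7.97 to 8.57 with NT3 against 5.66 to 6.25 in uninjured cord. The median was 4.39 over the 6 genes that passed a filter set in the compared groups alone. A gene low on all uninjured arrays passes that filter only if it is high with NT3, so the 4.39 is no estimate of the rise. The calprotectin genes, which neutrophils express in abundance, moved together: S100a8 read 7.49, 6.63 and 8.22 against 11.40, 10.90 and 10.55 (3.5, SE 0.81), and S100a9 rose by 2.91 (SE 0.81). The granule protease gene Mmp8 (0.59), Camp (-0.38) and Np4 (-0.26) were not called. Of 21 monocyte and macrophage genes 17 rose and 0 fell (median 2.01), led by the endotoxin co-receptor gene Cd14 (4.24), the beta-glucan receptor gene Clec7a (3.44) and the urokinase receptor gene Plaur (3.36). Cd68, a lysosomal macrophage gene, went from 6.54, 6.50 and 6.56 to 8.65, 8.19 and 8.85 (2.02, SE 0.23, adjusted p = 4.0e-10), with no overlap, whereas Ccr2 (0.18) and Nos2 (0.05) were not called. In a tissue sample more cells of a type and more RNA per cell cannot be told apart.

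Microglial identity genes went both ways, with 5 of 15 higher, 4 lower and a median of 0.07. The purinergic receptor gene P2ry12, a marker of resting microglia, read 10.26, 9.71 and 10.17 in uninjured cord and 9.03, 9.52 and 9.42 with NT3 (-0.73, SE 0.18, adjusted p = 7.2e-04), and Gpr34 (-1.0), Tmem119 (-0.62) and Sall1 (-0.61) fell as well. Aif1, which encodes IBA1 and is shared by microglia and macrophages, read 9.21, 9.62 and 9.78 against 10.57, 10.39 and 10.48 (0.95, SE 0.19, adjusted p = 4.0e-05). Neither gene overlapped between the groups, and they moved in opposite directions. The genes of complement component C1q, which these cells make, rose: C1qc by 2.38, C1qb by 2.20 and C1qa by 1.27. Of 13 complement genes 12 rose and 0 fell (median 1.34), and C3 was not called (-0.23). Of 14 antigen presentation genes 11 rose and 0 fell (median 0.75), with RT1-DMa (1.65) and RT1-DMb (1.5), which load class II molecules, in front.

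Reactive astrocyte genes rose in 24 of 26 cases and fell in 0 (median 1.98), but several of the leading members, such as Lcn2, Timp1 and Cd14, are also expressed by infiltrating leukocytes. Among the cytoskeletal members, the intermediate filament gene Vim read 11.48, 11.10 and 11.43 in uninjured cord and 13.16, 13.44 and 13.58 with NT3 (2.06, SE 0.10, adjusted p = 1.9e-22). The progenitor filament gene Nes rose by 1.35, and the hyaluronan receptor gene Cd44 by 1.91. Gfap, already among the brightest genes of the array, read 13.78, 13.88 and 13.76 against 13.94, 13.89 and 14.10, a difference of 0.17 (SE 0.06, adjusted p = 0.017) that lost its call under several other settings, among them the fits without NT3 replicate 3 (0.11), uninjured replicate 1 (0.15) or uninjured replicate 3 (0.14).

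Homeostatic astrocyte genes fell in 14 of 19 cases and rose in 0 (median -0.50). Klhdc7a read 9.52, 10.53 and 9.98 in uninjured cord and 7.89, 8.56 and 8.04 with NT3 (-1.85, SE 0.21, adjusted p = 4.0e-10). The glycine transporter gene Slc6a9 fell by 1.36, the neutral amino acid transporter gene Slc7a10 by 1.34, the mitochondrial glutamate carrier gene Slc25a18 by 1.33 and the folate enzyme gene Aldh1l1 by 1.26. The gap junction genes Gjb6 (-0.62) and Gja1 (-0.60) and the water channel gene Aqp4 (-0.43) fell less. The glutamate transporter genes Slc1a2 (0.27) and Slc1a3 (-0.08) and the glutamine synthetase gene Glul (0.17) were not called.

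The largest falls were smaller than the largest rises. Tril, which encodes an accessory protein of Toll-like receptor 4 signalling, read 11.02, 11.004 and 10.89 in uninjured cord and 8.84, 9.26 and 8.79 with NT3, a 4.02-fold lower mean (log2 difference -2.01, SE 0.20, limma adjusted p = 8.4e-12). Nxpe1 went from 6.68, 6.82 and 6.62 to 4.79, 4.86 and 4.68 (-1.93, SE 0.18). Both genes had spreads within a group far smaller than the gap between groups. Pamr1 (-1.76), Tbc1d12 (-1.69), the sodium-coupled inositol transporter gene Slc5a11 (-1.67), the glycosidase gene Myorg (-1.66), Nat8f5 (-1.66), the secreted factor gene Tafa4 (-1.56), Gdpd2 (-1.55), Mamdc2 (-1.52) and Hhatl (-1.47) followed. These 12 genes were taken from those whose NT3 arrays all lay below the uninjured arrays, which were 28% of all genes tested, so their separation is no result.

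Of 20 central myelin and oligodendrocyte genes 14 fell and 1, the aspartoacylase gene Aspa (0.40), rose, with a median of -0.57. Enzymes of myelin lipid synthesis led the falls, with the sulfotransferase gene Gal3st1 (-1.22) and the hydroxylase gene Fa2h (-1.18) in front of Ermn (-1.05) and Opalin (-1.01). Mbp, the gene of myelin basic protein, read 14.85, 14.78 and 14.75 against 14.77, 14.73 and 14.73 and was not called (-0.05, adjusted p = 0.46). Its probe sets disagreed, since their mean gave -0.37 and a call, and quantile normalization gave 0.02. Of 9 oligodendrocyte precursor genes 5 fell and 2, Vcan (0.61) and the growth factor receptor gene Pdgfra (0.38), rose (median -0.31). That count rested on single arrays: 3 genes fell without NT3 replicate 1, 3 without NT3 replicate 2 and 2 without uninjured replicate 2, and 0 fell in a fit of all arrays of the series.

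Neuronal genes fell by modest amounts. Of 24 pan-neuronal genes 15 fell and 1 rose, with a median of -0.40; 9 fell without NT3 replicate 2 and 7 in a fit of all arrays of the series. The splicing factor gene Rbfox3 (-0.90), the synapsin genes Syn1 (-0.68) and Syn2 (-0.62) and the neurofilament gene Nefh (-0.58) were among those that fell. The chloride transporter gene Slc12a5, which sets the inhibitory action of GABA, read 12.32, 12.62 and 12.23 in uninjured cord and 11.76, 11.69 and 11.71 with NT3 (-0.67, SE 0.15, adjusted p = 2.4e-04), with no overlap. Snap25, a core protein of synaptic release, read 13.90, 13.74 and 13.88 against 13.81, 13.66 and 13.75 and was not called (-0.10). Rbfox3 lost its call without uninjured replicate 2 (-0.70), with the beta-actin covariate (-0.55) and in a fit of all arrays.

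Transmitter receptor genes fell in 19 of 24 cases and rose in 0 (median -0.56). The metabotropic glutamate receptor gene Grm3 (-1.34), the GABA-A receptor gene Gabra2 (-1.23) and the NMDA receptor gene Grin2c (-1.01) fell furthest. The AMPA receptor gene Gria3 read 10.53, 10.20 and 10.17 against 9.61, 9.65 and 9.45 (-0.73, SE 0.14, adjusted p = 3.0e-05), so its groups were apart. The NMDA receptor gene Grin2b (0.06) and the glycine receptor gene Glra1 (0.06) were not called. Voltage-gated channel genes fell in 15 of 25 cases and rose in 0 (median -0.41), with the potassium channel genes Kcnd2 (-1.04) and Kcnc1 (-0.79) and the sodium channel subunit gene Scn2b (-0.75) in front, and a fit of all arrays called 8 of them. Of 10 inhibitory neuron genes 4 fell and 0 rose (median -0.28), with the vesicular GABA transporter gene Slc32a1 (-0.74) furthest. Among 11 cholinergic and motor neuron genes 3 were higher and 2 lower, the latter being Esrrg (-0.78) and the acetylcholine synthesis gene Chat (-0.51). The largest of the 3 rises was that of Mmp9 (1.57), a borderline call and a gene that neutrophils also express, so it is no sign of motor neurons.

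Genes that mark the growth response of injured neurons rose in 12 of 21 cases and fell in 3 (median 0.75). Besides Atf3, the tetrahydrobiopterin synthesis gene Gch1 rose by 2.6, the small heat shock gene Hspb1 by 2.58 and Gadd45a by 2.19. Sprr1a read 5.78, 5.97 and 5.85 in uninjured cord and 6.80, 6.65 and 6.71 with NT3 (0.85, SE 0.17), and the growth cone gene Gap43 rose by 0.56. In the neurotrophic group 5 of 18 genes rose and 5 fell (median 0.09), shares close to those of all genes. Bdnf, the gene of brain-derived neurotrophic factor, read 6.68, 6.96 and 6.83 against 8.07, 7.54 and 7.91, a 2.02-fold higher mean (1.01, SE 0.16, adjusted p = 1.4e-06) with no overlap. Its receptor gene Ntrk2 (-0.50, SE 0.12) and the NT3 receptor gene Ntrk3 (-0.54, SE 0.16, adjusted p = 0.0060) fell. Ntrk3 read 7.57, 7.79 and 7.67 against 7.15, 7.05 and 7.21, and all of its NT3 arrays were the lower ones. The pan-neurotrophin receptor gene Ngfr overlapped between the groups (0.26, adjusted p = 0.51), and the gene of NT3 itself, Ntf3, lay below the filter on low values.

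Matrix and scar genes rose in 18 of 25 cases and fell in 0 (median 1.17). The collagen crosslinking enzyme gene Lox rose by 4.0, the matricellular genes Tnc by 3.08 and Thbs2 by 2.85 and the fibronectin gene Fn1 by 2.68, while Col1a1 (0.36) and Sparc (0.07) were not called. Meningeal and fibroblast genes moved with them, since 9 of 11 were higher (median 0.70) and the mean level of that list ran from 10.08 to 10.33 with NT3 against 8.99 to 9.28 in uninjured cord. The part of such cells in the matrix result was not tested. Metalloproteinase genes rose in 10 of 22 cases and fell in 3 (median 0.52), led by the stromelysin gene Mmp3 (4.05) and by Adamts1 (2.47). Mmp9, the gelatinase of neutrophils, read 4.99, 4.62 and 4.73 against 7.26, 5.55 and 6.25 and was a borderline call (1.57, SE 0.67) lost without any one of NT3 replicates 1 and 3 or uninjured replicates 1, 2 and 3. Of 13 chondroitin sulfate proteoglycan genes 4 rose and 4 fell, with Ncan (1.25) and the synthase gene Chsy1 (1.14) up and the perineuronal net genes Bcan (-1.13) and Acan (-0.65) down.

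Genes of leukocyte adhesion and endothelial activation rose in 13 of 16 cases and fell in 1 (median 1.17). The protein C receptor gene Procr rose by 3.05, Plau by 2.38 and the adhesion molecule gene Icam1 by 1.58, whereas Vcam1 fell (-0.79) and the selectin genes Selp (0.31) and Sele (0.26) were not called. Of 22 endothelial and angiogenic genes 6 were higher and 7 lower (median 0.08), shares near those of all genes. Esm1, a tip cell gene, rose by 4.29 and the vessel-destabilising ligand gene Angpt2 by 1.97. The receptor genes Aplnr (-1.03) and Kdr (-0.94) and the growth factor gene Vegfa (-0.39) fell. The count of falls was 4 without NT3 replicate 2 or without uninjured replicate 2. Hypoxia and glycolysis genes showed 5 of 25 higher and 7 lower (median -0.07), with Adm (2.08) and the lactate dehydrogenase gene Ldha (1.85) up and most glycolytic enzymes, such as Pgk1 (0.10), not called.

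Stress and growth genes of other kinds changed as well. Haem, iron and oxidative stress genes rose in 12 of 21 cases and fell in 1 (median 0.54), and Hmox1, whose product breaks down haem, went from 8.04, 7.63 and 8.21 to 11.80, 11.33 and 11.60 (3.62, SE 0.17, adjusted p = 1.9e-22) with no overlap. Heat shock genes rose in 11 of 19 cases and fell in 0 (median 0.30). Glucocorticoid-responsive genes rose in 13 of 16 cases and fell in 0 (median 1.57), with the receptor co-chaperone gene Fkbp5 at 7.74, 7.70 and 7.89 against 9.69, 9.89 and 9.59 (1.95, SE 0.24), the metallothionein gene Mt2A up by 2.83 and Tsc22d3 (0.02) not called. Cell cycle genes rose in 24 of 33 cases and fell in 0 (median 0.76), among them Cdk1 (1.99) and the replication helicase gene Mcm6 (1.89). Ribosomal protein genes rose in 19 of 22 cases (median 0.50), and respiratory chain genes were nearly flat, with 2 of 33 lower, 0 higher and a median of -0.01. Clock genes fell in 7 of 16 cases and rose in 2 (median -0.24), with the output gene Dbp lowest (-1.02). The largest change of that list was the rise of Bhlhe40. Cholesterol synthesis genes fell in 7 of 18 cases and rose in 1 (median -0.10).

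**Figure D2:**
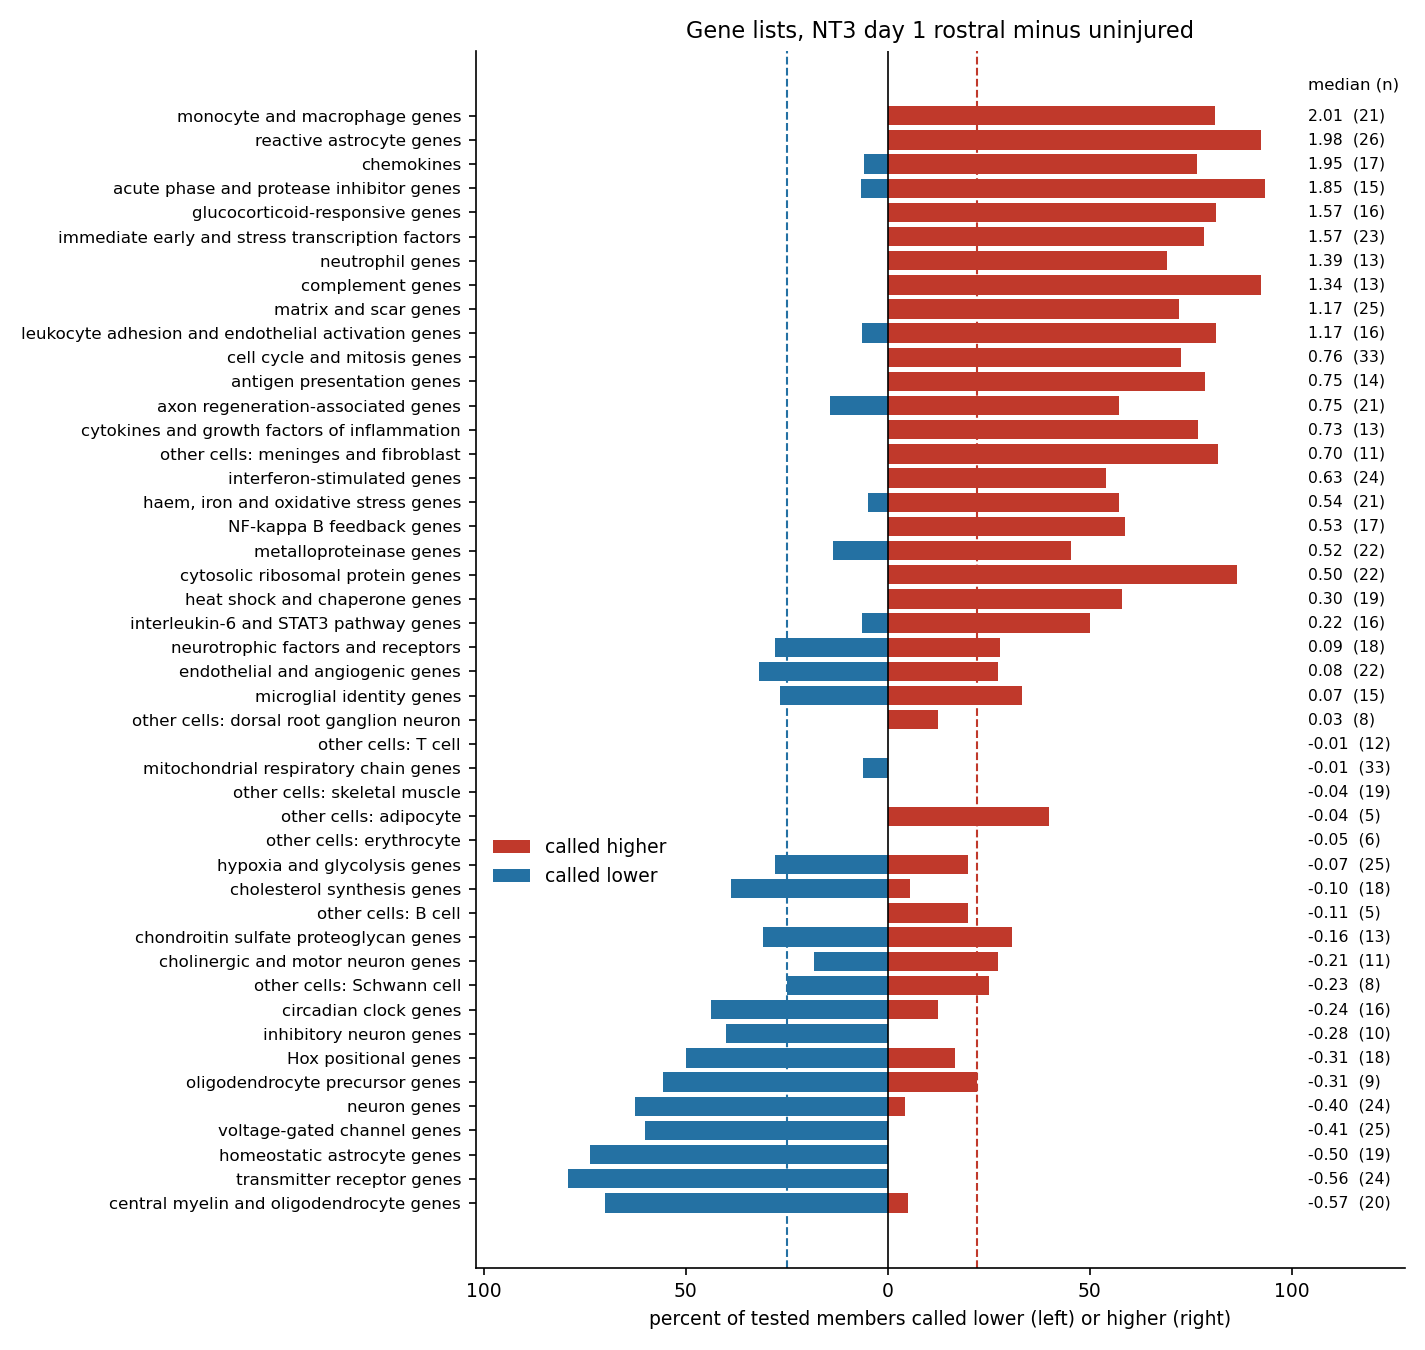
Share of the tested members of each gene list called higher (red, to the right) or lower (blue, to the left) between NT3 day 1 rostral and uninjured cord, ordered by the median log2 difference, which is printed with the number tested; lists with fewer than 5 tested members are left out. Dashed lines mark the shares over all genes tested, 22.1% higher and 25% lower, and immune and astrocyte reaction lists lie at the top, with receptor, channel and myelin lists at the bottom.

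Hox genes, which record position along the body axis, varied among the arrays of a group. Hoxd10 read 4.52, 7.94 and 6.85 in uninjured cord and 4.63, 4.49 and 4.57 with NT3 (-1.87, SE 0.32). Hoxd9 read 7.62, 10.47 and 9.08 against 9.17, 7.05 and 7.28 (-1.23, SE 0.38), and Hoxa10 read 8.64, 10.80 and 9.59 against 9.27, 8.32 and 8.33 (-1.04, SE 0.38). The groups overlapped for all 3 genes although all 3 were called, and without uninjured replicate 2 the differences were -1.12, -0.52 and -0.48, with Hoxd9 and Hoxa10 no longer called. Hoxd9 (-0.84 and -0.95) and Hoxa10 (-0.88 and -0.89) also lost their calls without NT3 replicate 2 or 3, and Hoxd10 was -2.83 without uninjured replicate 1. In a limma fit of the compared groups alone, Hoxd10 (adjusted p = 0.057), Hoxd9 (adjusted p = 0.208) and Hoxa10 (adjusted p = 0.117) all lost their calls. The Hoxd10 values of NT3 cord and of uninjured replicate 1 lay below the 40th percentile of the array. In all, 9 of 18 Hox genes were lower and 3 higher (median -0.31). Since the labels give no cord level for the uninjured tissue, a difference in level and an effect of injury cannot be told apart for these genes.

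**Figure D3:**
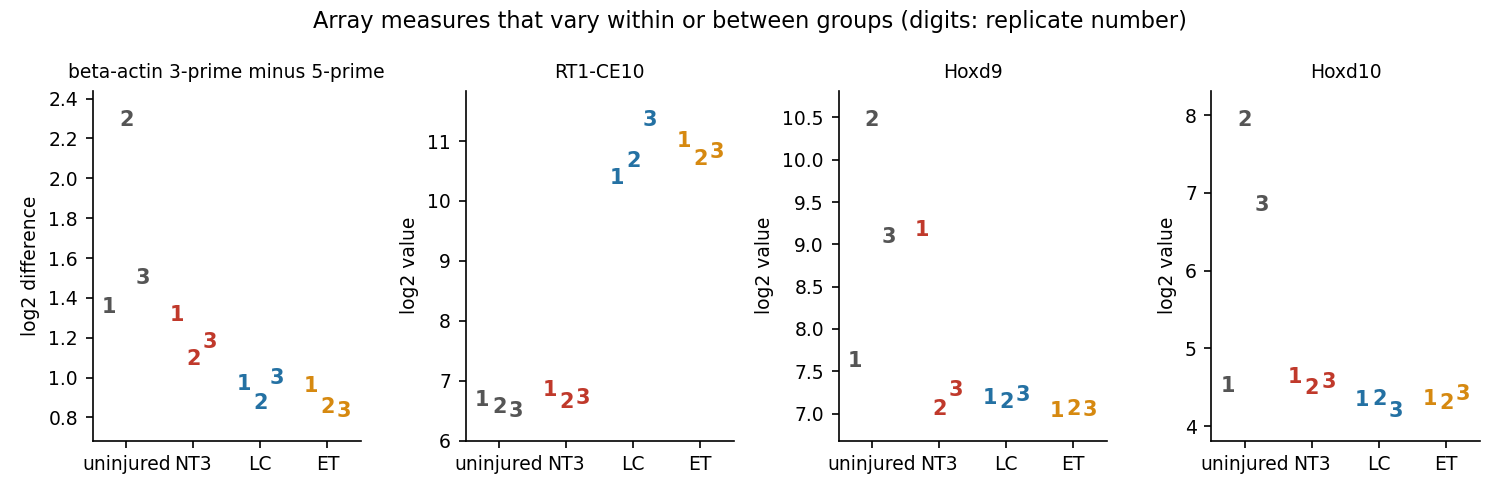
Beta-actin 3-prime minus 5-prime log2 difference and log2 values of RT1-CE10, Hoxd9 and Hoxd10 (vertical axes) in uninjured cord and in the rostral NT3, LC and ET groups of day 1, with each digit standing for the replicate of that number. Uninjured replicate 2 is highest in beta-actin, Hoxd9 and Hoxd10, and RT1-CE10 is low in uninjured and NT3 cord and high in LC and ET cord.

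The NT3 arm was also set against the other injured arms on the same day. Between NT3 and LC 3691 genes were called (30.7%), 1645 higher with NT3 (13.7%) and 2046 lower (17%), but 2160 were called without LC replicate 3. Between NT3 and ET 1802 were called (15%), 872 higher (7.24%) and 930 lower (7.72%), and the count was 1097 without NT3 replicate 1, 966 without NT3 replicate 2 and 753 without ET replicate 3. The arms also differed in a gene that varies between rats. RT1-CE10, a class I histocompatibility gene, read 6.68, 6.57 and 6.49 in uninjured cord and 6.84, 6.64 and 6.72 with NT3, but 10.39, 10.66 and 11.36 in LC and 10.997, 10.70 and 10.82 in ET cord (NT3 minus LC -4.07, NT3 minus ET -4.10, both SE 0.24). Another gene of the complex, RT1-T24-4, was higher with NT3 than in LC (1.81) and ET (1.55). A difference between the animals and an effect of NT3 cannot be told apart in these 2 comparisons. Between NT3 and uninjured cord RT1-CE10 was not called (0.16, limma adjusted p = 0.63), but 1 gene does not show that the animals of these groups were alike.

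Neuronal lists stood higher with NT3 than in LC. Of 24 neuron genes 15 were higher and 0 lower (median difference 0.46), of 24 transmitter receptor genes 13 and 0 (0.57), of 25 channel genes 15 and 1 (0.51) and of 19 homeostatic astrocyte genes 12 and 0 (0.37). Gria3 was 0.64 above LC (adjusted p = 5.6e-04) and 0.63 above ET. Lists of vessels, matrix and leukocytes stood lower: 13 of 16 adhesion genes (median -0.69), 15 of 22 endothelial genes (-0.55), 14 of 25 matrix genes (-0.73), 12 of 21 macrophage genes (-0.54) and 7 of 13 neutrophil genes (-1.13) were lower with NT3 than in LC. For neutrophil genes the mean list level overlapped between NT3 (7.97 to 8.57) and ET (8.46 to 8.82). For homeostatic astrocyte genes NT3 and ET met at 10.44, and for the other lists of this paragraph their arrays did not overlap. The beta-actin difference was lower in LC (mean 0.95) and ET (0.88) than with NT3 (1.19), and its part in these counts was not tested.

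Single genes also differed between the arms. Hmox1 read 13.08, 13.25 and 13.34 in LC and 12.48, 12.01 and 12.86 in ET, all above the NT3 arrays, and NT3 was lower than LC by a difference of -1.65 (SE 0.17, adjusted p = 2.2e-09) and lower than ET by -0.88 (adjusted p = 4.1e-04). Il1rn was lower with NT3 than in LC (-1.99) and ET (-1.52), the stefin gene Stfa2l2 was -3.71 and -2.89, the matricellular gene Ccn1 -2.65 and -2.43, and the protease-like gene Prss35 -2.63 and -2.56. Ccl2 was not called between NT3 and LC (-0.73, adjusted p = 0.057) or ET (-0.70), and neither was Lcn2 (0.02 and 0.06). Bdnf was higher with NT3 than in LC (0.66, SE 0.16, adjusted p = 0.0020) but not called against ET (0.05).

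Of 24 interferon-stimulated genes 18 were lower with NT3 than in ET and 0 higher (median -0.98), against 7 lower and 1 higher for LC (median -0.37). Oas1b read 3.26, 3.44 and 3.28 with NT3, 4.95, 4.57 and 4.43 in LC and 6.42, 7.03 and 6.58 in ET, so all 3 groups were apart (NT3 minus ET -3.35, SE 0.20, adjusted p = 9.1e-18; NT3 minus LC -1.33). The NT3 values of Oas1b lay far below the 40th percentile of their arrays (6.51 to 6.54), so low signal limits the size of its differences. Irf7 differed in the same direction (NT3 minus ET -1.99, adjusted p = 1.8e-07). The difference between these 2 contrasts was not tested, as they share the NT3 arrays.

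Pcdh20, a protocadherin gene of cell adhesion, was the gene most raised with NT3 against both injured arms. It read 9.72, 10.01 and 9.63 with NT3, 8.19, 7.86 and 7.90 in uninjured cord, 7.62, 7.35 and 6.53 in LC and 7.07, 7.81 and 6.72 in ET. The NT3 arrays lay above all others, by 1.80 over uninjured cord (SE 0.25, adjusted p = 9.9e-08), 2.62 over LC (adjusted p = 3.4e-10) and 2.58 over ET. Caudal cord of the NT3 arm held a mean of 9.54 on day 1 (SD 0.47, n = 3), and by day 3 the rostral NT3 mean was 6.89 (SD 0.21, n = 3). The sulfotransferase gene Sult1a1 read 10.73, 11.68 and 10.75 with NT3 against 8.79, 8.30 and 8.84 in uninjured cord (2.41, SE 0.31), and it was 1.66 above LC and 1.85 above ET. Phactr3, a regulator of phosphatase and actin, was 0.55 above uninjured cord, 1.64 above LC and 1.35 above ET.

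**Figure D4:**
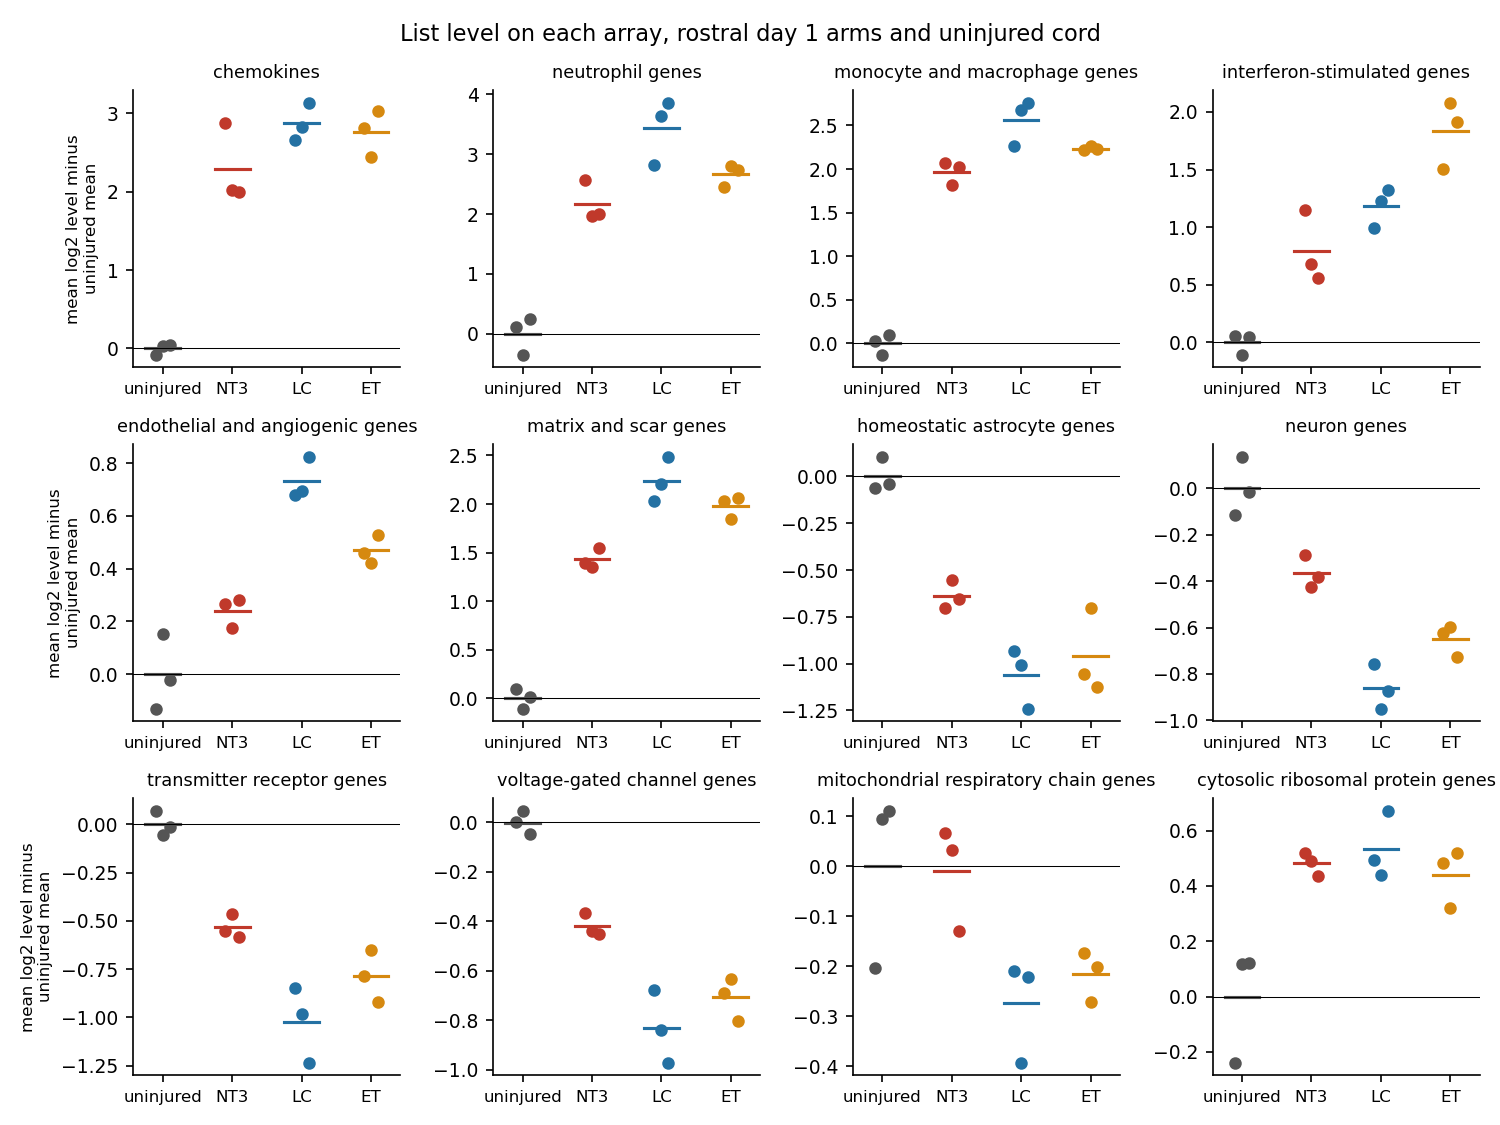
Mean log2 level of 12 gene lists on each array of uninjured cord and of the rostral NT3, LC and ET groups of day 1, minus the mean of uninjured cord (vertical axis); points are arrays, bars are group means, and vertical scales differ between panels. NT3 arrays lie between uninjured and LC arrays for matrix, endothelial, neuron and channel lists, and replicate 1, the leftmost NT3 point, is highest for chemokines and interferon-stimulated genes.

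Within the NT3 arm, rostral cord of day 3 was set against that of day 1. Between day 3 and day 1, 3876 genes were called (32.2%), 2202 higher on day 3 (18.3%) and 1674 lower (13.9%), or 1047 lower without NT3 day 1 replicate 1. The early inflammatory signals dropped: Il6 fell by 4.04 on the log2 scale (SE 0.36, adjusted p = 1.6e-12), Cxcl2 by 3.41, Il1r2 by 3.13 and Cxcl1 by 2.62. Lbp stayed near its day 1 level (0.07, adjusted p = 0.89), and so did Tnfaip6 (0.46, adjusted p = 0.13). This comparison shares the day 1 arrays with the one against uninjured cord, so a gene named for an extreme value on day 1 is more likely to move back by day 3. Nxpe1 rose by 2.04 to a mean of 6.82 (SD 0.18, n = 3), close to the 6.70 of uninjured cord (SD 0.11, n = 3). Bdnf fell by 1.09.

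Cell cycle, microglial identity and matrix genes were mostly higher on day 3 than on day 1. Of 33 cell cycle genes 30 were higher on day 3 and 1 lower (median 1.23), with Ccnb2 up by 3.27 and Cdk1 by 2.45. All 15 microglial identity genes were higher on day 3 (median 1.10), including P2ry12 (1.61), which had fallen on day 1. Of 25 matrix genes 18 were higher and 0 lower (median 0.71), and 8 of 13 complement genes were higher. The Fc receptor-like gene Fcrl2 (3.98), the mitotic gene Pimreg (3.23), the matrix gene Aspn (3.0) and the fatty acid-binding protein gene Fabp4 (3.02) rose most with Ccnb2. Neuron genes went further down, with 16 of 24 lower and 0 higher (median -0.50), and so did 14 of 25 channel genes. Glucocorticoid-responsive genes receded, with 10 of 16 lower and 0 higher (median -0.76).

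**Figure D5:**
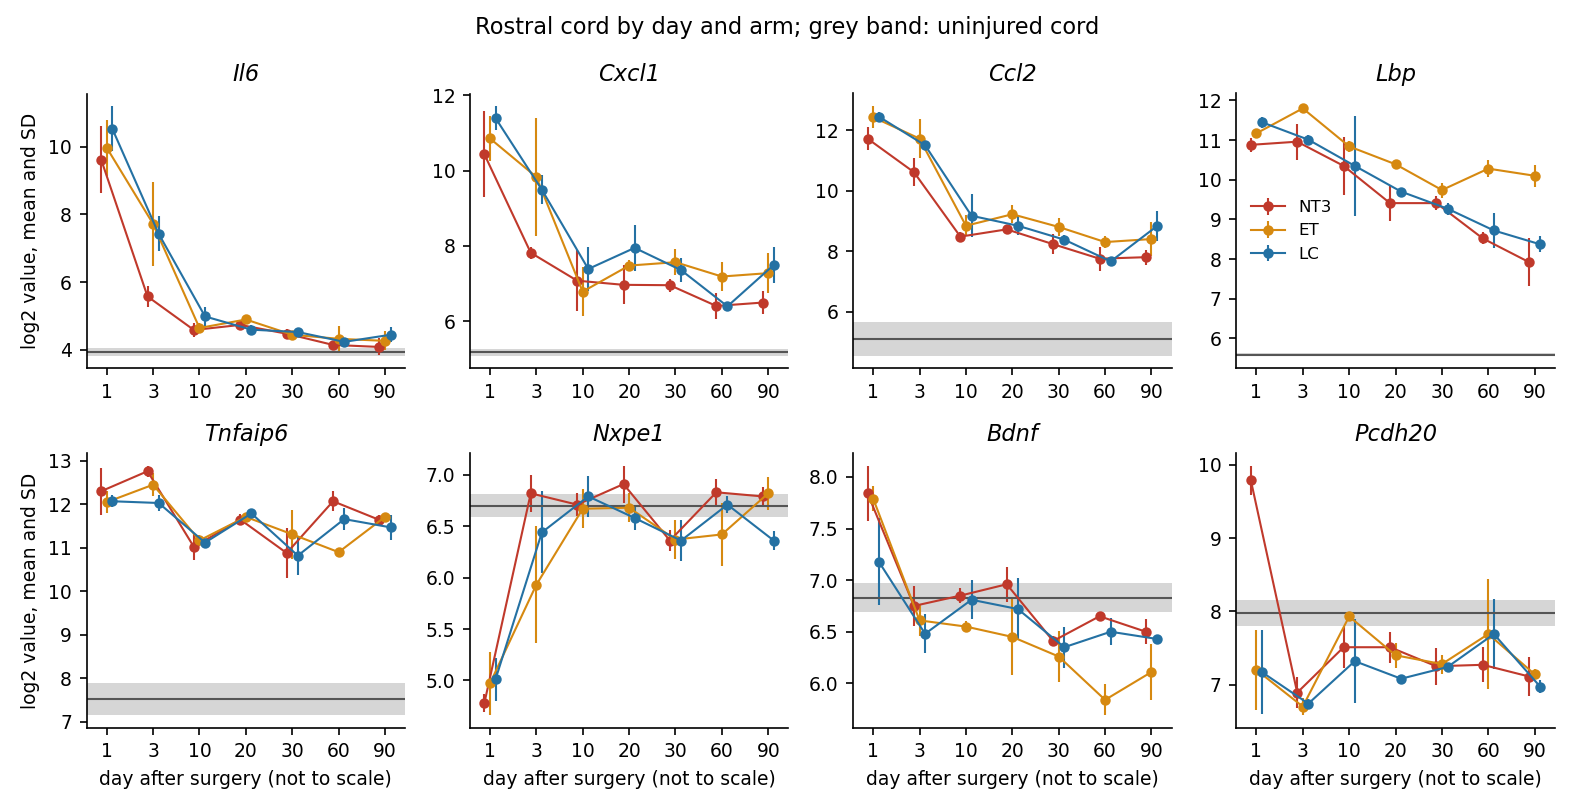
Group mean and SD of the deposited log2 value of 8 genes (vertical axes) in rostral cord of the NT3, ET and LC arms on days 1 to 90, with the mean and SD of uninjured cord as a grey line and band; days are evenly spaced and not to scale, and groups hold 3 arrays except ET on day 10, which has 2. Il6 and Cxcl1 fall steeply between days 1 and 3 in the NT3 arm, Lbp and Tnfaip6 stay high, Nxpe1 is back near uninjured cord by day 3 in the NT3 arm, and Pcdh20 is raised on day 1 in the NT3 arm alone among the arms drawn.

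Cord caudal to the lesion in the NT3 arm on day 1 gave no gene that passed the threshold against the rostral segment. In limma, with the samples unpaired, 0 of 12040 genes (0%) were called, with 644 at an unadjusted p under 0.05. The rostral and caudal means were 11.72 (SD 0.39) and 11.88 (SD 0.61) for Ccl2, 12.09 (SD 0.05) and 12.52 (SD 0.42) for Lcn2, 7.84 (SD 0.27) and 7.80 (SD 0.25) for Bdnf and 8.96 (SD 0.26) and 8.86 (SD 0.46) for Tril, each over 3 arrays. These gaps were smaller than the SD of one or both groups or close to it. Without caudal replicate 1, 25 genes were called, and a count of 0 does not show that the segments were alike.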

How the data were processed

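Total RNA from short cord segments was hybridised to Affymetrix arrays. Per the submitters' processing notes, the authors used GCOS and Affymetrix Expression Console, the latter with RMA, to make the log2 values. The set of arrays that shared a normalization is not given in the sources used here. The deposited log2 values of 31099 probe sets were used as they stand. For each of 14217 genes with a named probe set the one with the highest mean was kept, and 12040 genes above the 40th percentile of the array in at least 3 of the 167 arrays were tested. Depth does not apply to arrays, and the number of arrays limits the precision.

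In R 4.3.3, limma 3.58.1 estimated a mean per group from the 65 rostral and uninjured arrays, or from 128 arrays with the caudal ones. Two-sided p-values received the Benjamini-Hochberg adjustment across the 12040 genes, and the procedure was tested on simulated data. The groups, the 47 gene lists and the rule for named genes were chosen with earlier results of these data known. The rule took the 12 highest and 12 lowest called genes whose arrays did not overlap, the 3 largest called changes of each list, the 5 highest and 5 lowest called genes of the other comparisons, and a fixed set of injury, neurotrophin, cell type, RT1 and Hox genes. Other list members are examples chosen after their values were seen. LC and ET share the uninjured arrays with NT3, so no overlap with their injury responses was computed. Samples with the same replicate number did not deviate together in NT3 and uninjured cord (correlations -0.18, -0.06 and -0.14). Rostral and caudal NT3 samples did (0.14, 0.36 and 0.49), but the labels do not say that they share an animal, and the main fit left them unpaired. A fit of these groups alone with the replicate number as a block also called 0 genes.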

Additional observations from a re-analysis of the deposited data

Results flagged for a closer look

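This search took in only the genes of the largest rises and falls against uninjured cord and the fixed set of genes described above. Genes outside it, such as Pcdh20, Sult1a1, Stfa2l2 and Prss35, also differed from both other arms and are not counted here. Among the genes searched, 6 differed between the NT3 arm and the LC arm on day 1 and also between NT3 and ET, by the fitted difference. Of all genes tested, 30.7% were called against LC and 15% against ET. The share called in both was not computed, so the count of 6 is no result about these genes. NT3 minus LC was -0.87 for the chemokine gene Ccl7, 1.37 for Klhdc7a, -1.01 for the feedback inhibitor gene Socs3, -0.86 for the stress factor gene Atf3, -1.65 for the haem oxygenase gene Hmox1 and -4.07 for the histocompatibility gene RT1-CE10. The NT3 mean of the first 5 genes lay between the means of uninjured cord and of both other arms, and RT1-CE10 was at a low level in both NT3 and uninjured cord.

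Probe sets without a gene name lie outside the comparisons above. Of 5430 tested, 2133 (39.3%) were called between NT3 day 1 and uninjured cord, 486 higher and 1647 lower.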

How the results depend on the processing

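The count of genes called between NT3 day 1 and uninjured cord ran from 4036 to 7119, the latter with array weights. The 4036 came from a fit of the compared groups alone with the replicate number as a block, called the replicate block below. The compared groups alone without the block gave 4726. The share of higher genes among them ran from 44.8% to 52.8%, and it passed 50% with the mean of probe sets (50.3%), the replicate block (50.8%), the beta-actin covariate (52.8%) and without uninjured replicate 2 (50.1%). Leaving out each array in turn gave 4831 to 5449 genes, 2306 to 2564 higher and 2411 to 2968 lower; the replicate block gave 1985 lower. Of the named genes' values under the alternatives, 2454 kept direction and side of the threshold, 65 lost the call, 7 gained it, and 2 changed sign: Mbp with quantile normalization (0.02) and RT1-CE10 with the beta-actin covariate (-0.12), neither called.

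Between NT3 and LC the replicate block gave 2211 genes, 976 higher and 1235 lower, against 2882 for the compared groups alone without the block. Leaving out arrays gave 2160 to 3683, 1082 to 1631 higher and 1078 to 2052 lower. Between NT3 and ET array weights gave 2734, 1315 higher and 1419 lower, and leaving out arrays gave 753 to 1686, 323 to 831 higher and 430 to 859 lower. Between day 3 and day 1 the replicate block gave 2201, 1439 higher and 762 lower, against 3085 for the compared groups alone without the block. Leaving out arrays gave 2762 to 3499, 1674 to 2068 higher and 1047 to 1536 lower. Between rostral and caudal cord a fit of all arrays called 1 gene and the beta-actin covariate 1, both lower rostrally, array weights 2, both lower, and leaving out arrays 0 to 25, 0 to 6 higher and 0 to 19 lower. The labels do not say whether the replicate numbers pair any samples, and the cause of these shifts was not tested. Low signal limits the size of the folds of genes near background in uninjured cord, and 3 arrays a group limit the rest. Some list medians also moved by over 1.5 times: acute phase genes from 1.85 to 3.02 with a stricter filter, NF-kappa B feedback genes from 0.53 to 0.97 and homeostatic astrocyte genes from -0.50 to -0.31 with the mean of probe sets, and clock genes from -0.24 to -0.03 with the beta-actin covariate. A stricter filter keeps a gene that is low in uninjured cord only if it is high on other arrays. The 3.02 is therefore no estimate of the rise.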
